A study of Mus musculus with 23 samples.

Results

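Long intergenic RNAs are transcripts without a known protein product whose genes lie apart from protein-coding genes in the annotation. Their levels were followed in mouse sciatic nerves (SNs) at 3 days post crush (dpc). Genes were chosen by their annotation and their level, as those that GENCODE vM21 types as lincRNA and that averaged at least 5 CPM (counts scaled to the library total) over the 11 libraries of the crush experiment, control nerves included, leaving out H19 and Meg3. This gave 128 genes of the 3078 lincRNA genes and of the 43068 genes of all types in the crush files. The nerves came from wild-type C57BL/6J males of 2 months. They fell into crushed SNs at 3 dpc (n = 4), the contralateral SNs collected at 3 dpc (n = 4) and SNs of the uncrushed surgery control (n = 3). By the methods of the study the contralateral SN was taken from operated mice, so crushed and contralateral SNs can share animals, but which nerves belong together is not given and the tests treat them as independent. RNA was extracted from whole pieces of nerve, which hold Schwann cells (SCs), axons, fibroblasts, endothelial cells and, after a crush, invading blood cells, so fewer cells of a type and less RNA per cell cannot be told apart.

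Long intergenic RNAs act in several ways. Some stay in the nucleus and build or fill nuclear bodies, as Neat1 does for paraspeckles and Malat1 for nuclear speckles. Some are host transcripts, whose introns or exons release small nucleolar RNAs (snoRNAs) or microRNAs. Others start next to a protein-coding gene on the opposite strand and share its promoter region. After a crush, the myelinating SCs beyond the lesion shed their myelin program and turn into repair SCs while macrophages enter the nerve, and the comparison of crushed with control nerves asks which of these RNAs move with that change.

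The label is one of annotation. Of the 128 genes, 105 lay clear of every protein-coding span and 23 overlapped one. RefSeq lists 5 of them as protein coding, including Zfp469 and Tmem250-ps. At least 50% of the 31-base words of 35 genes also occurred in transcripts of other genes, on either strand, so reads could be divided among copies in the quantification and the levels of these 35 are uncertain. All 11 libraries were of males, and 5 of the genes lie on chromosome Y. By class, 3 genes were rRNA-like, 3 were snoRNA hosts, 6 were microRNA hosts, 4 were other RNAs with a described role, 13 were divergent from a protein-coding gene (starts within 2000 bases on opposite strands), 10 started within 10000 bases downstream of one on the same strand, and 89 were in none of these classes. The mean level was at least 100 CPM for 13 genes and under 10 CPM for 48. The limit itself cut through a continuous range, with Gm26525, Gm2309 and Gm26894 just inside at 5.02, 5.06 and 5.07 CPM, and Gm26880, Gm26601 and Trp53cor1 just outside at 4.98, 4.98 and 4.97 CPM. A mean of at least 5 CPM was reached within every group by 104 genes, in crushed nerves alone by Gm26894, and in uncrushed nerves alone by Gm26804, Gm16025, Gm12798 and Gm26525. In both control groups but not in crushed nerves it was reached by 16 genes, among them A330069K06Rik, B230312C02Rik, Gm13403, AY512931 and Gm29194, and in crushed nerves and 1 control group by Snhg6, Gm37233 and Gm26619. For these 24 genes the choice itself favours a difference.

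The promoters shown next belong to genes that were among the most reduced and whose sequence holds a searched motif, so its presence in them follows from the choice. They run from 250 bases before to 50 bases after the start of the gene, 5′ to 3′ on the gene's strand, from RefSeq on GRCm38.p6. RefSeq promoters were found for 42 of the 128 genes (44 promoters). In Snhg18 (chr15:32244613-32244912, minus strand) and 9530059O14Rik (chr9:122572251-122572550, plus strand) the capitals mark the motif of the Egr family, GCGNGGGCG on either strand, which begins at -95 and -76. Egr2 is the transcription factor that drives the myelin program of SCs. In 1300002E11Rik (chr16:21794097-21794396, plus strand) they mark the cAMP response element TGACGTCA at -49.
Snhg18: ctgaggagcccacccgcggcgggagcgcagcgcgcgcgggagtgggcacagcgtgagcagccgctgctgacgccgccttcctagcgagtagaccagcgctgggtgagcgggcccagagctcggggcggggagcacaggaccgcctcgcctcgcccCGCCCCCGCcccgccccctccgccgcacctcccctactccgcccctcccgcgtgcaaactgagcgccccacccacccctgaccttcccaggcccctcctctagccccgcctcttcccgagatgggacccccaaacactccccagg
9530059O14Rik: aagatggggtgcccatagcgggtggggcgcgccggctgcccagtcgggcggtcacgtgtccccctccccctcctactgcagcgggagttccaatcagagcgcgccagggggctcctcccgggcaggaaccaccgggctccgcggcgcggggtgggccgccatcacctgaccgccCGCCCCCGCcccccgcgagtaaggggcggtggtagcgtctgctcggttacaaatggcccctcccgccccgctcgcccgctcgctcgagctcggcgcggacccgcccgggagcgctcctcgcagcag
1300002E11Rik: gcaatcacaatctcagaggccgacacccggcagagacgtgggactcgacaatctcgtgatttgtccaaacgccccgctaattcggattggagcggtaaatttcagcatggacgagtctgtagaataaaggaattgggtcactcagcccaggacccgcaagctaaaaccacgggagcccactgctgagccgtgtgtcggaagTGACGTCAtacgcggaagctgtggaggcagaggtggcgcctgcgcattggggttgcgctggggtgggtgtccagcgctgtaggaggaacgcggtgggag
The Egr motif occurred in 5 of the 44 promoters (11.36%) and in 5.55% of all 32851 RefSeq promoters, and the cAMP response element in 4 of the 44 (9.09%) and in 1.79% of all. The AP-1 motif TGANTCA was in 5 of the 44 and in 7.81% of all. The other motifs searched were in 2 (E2F), 2 (Ets), 1 (sterol response) and 4 (TATA box) of the 44. They were in 1.56%, 3.89%, 1.24% and 13.62% of all. These matches describe the sequence and were not tested as sites.

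Groups were compared by edgeR's quasi-likelihood test across all genes, and a gene was called when it changed at least 2-fold with a Benjamini-Hochberg adjusted p of at most 0.05. Levels per library are CPM normalized by the TMM method unless another scale is named, and all changes are log2 fold changes with their standard error (SE). Crushed against contralateral nerves, 7 of the 128 were called higher and 18 lower, beside 14.6% and 13.6% of all 16667 genes tested. Crushed against uncrushed nerves, 6 were higher and 71 lower, beside 15.3% and 21.1% of 17433 genes. The fit without a filter on low counts, which moved the median change of the same genes up by 0.17 and 0.23 on the log2 scale, called 8 higher and 11 lower than in contralateral nerves, beside 8.92% and 6.4% of the genes in that fit. It called 7 higher and 35 lower than in uncrushed nerves, beside 10.2% and 10.8%. Called against both controls, which share the crushed nerves, were 6 higher (Gm42418, Gm26917, Zfp469, Snhg6, Gm37233 and Gm26894) and 16 lower. The share of all genes called against both was not counted, so whether these numbers differ from it cannot be said. For genes that reached 5 CPM in only some groups, the choice favours the called direction. Among the higher these are Snhg6, Gm37233 and Gm26894, and among the lower A330069K06Rik, B230312C02Rik, Gm13403, AY512931 and Gm29194. Contralateral against uncrushed nerves, none of the 127 tested were called by edgeR in either direction, as were 0% of all 17722 genes, although 73 of the 127 had an unadjusted p under 0.05, beside 17.9% of all genes, and DESeq2 called 3 lower, beside 0.113% of all genes.

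Reductions were shared by many of the RNAs and were larger against uncrushed nerves. The median log2 fold change was -0.57 against contralateral and -1.03 against uncrushed nerves, while that of all genes tested was -0.06 and -0.03, and that of protein-coding genes 0.03 and 0.12. Without the fold limit, 96 of the 128 were lower than in contralateral nerves and 99 lower than in uncrushed nerves at an adjusted p of at most 0.05, beside 32.9% and 33.4% of all genes tested. The 333 and 413 other lincRNA genes tested, which were below the limit of 5 CPM, had medians of -0.57 and -1.04. Between contralateral and uncrushed nerves the median was -0.47, beside -0.02 for all genes. The 93 genes with under 50% shared words gave medians of -0.58 and -0.99, and the 35 with more gave -0.48 and -1.10.

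**Figure D1:**
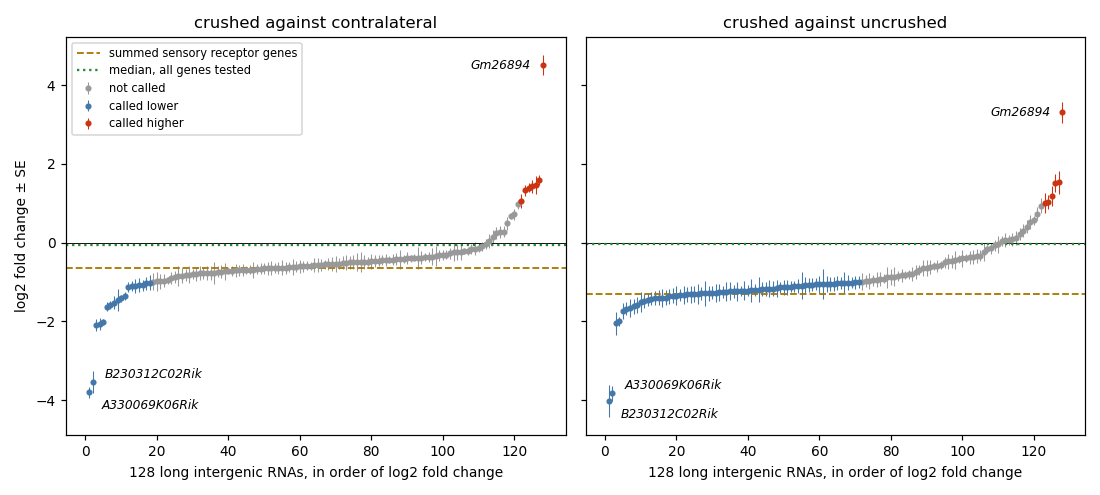
Log2 fold change (± SE) of each of the 128 long intergenic RNAs, in order, for crushed against contralateral (left) and crushed against uncrushed nerves (right). Most points lie below 0 near the dashed line of the summed sensory receptor genes (-0.65 and -1.31), and Gm26894, A330069K06Rik and B230312C02Rik stand apart.

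Genes with no known role in a nerve moved in the same order. Summed over 1360 olfactory and vomeronasal receptor genes, whose products detect odours and pheromones in the nose, the level was 376.7 to 614.7 CPM in crushed, 529.8 to 855.3 CPM in contralateral and 775.7 to 1270 CPM in uncrushed nerves. This sum is scaled to the library total, without TMM normalization. After TMM normalization, the mean of its log2 values differed between groups by -0.65 (crushed against contralateral), -1.31 (crushed against uncrushed) and -0.65 (contralateral against uncrushed). Of all 128 RNAs, called or not, 97 lay within 0.5 of the receptor difference against contralateral nerves and 81 against uncrushed nerves. Of the 71 RNAs called lower than in uncrushed nerves, 67 lay within 0.5 of it and 4 lay further down (Dubr, A330069K06Rik, B230312C02Rik and Gm29194). Of the 18 called lower than in contralateral nerves, 7 lay within 0.5 and 11 further down. The 2-fold limit of a call restricts which values can fall within 0.5, differently in each comparison, so these splits cannot be compared. The uncrushed library with the highest receptor level, replicate 3, was also the shallowest at 6617600 counts, and without it 38 rather than 71 RNAs were lower than in uncrushed nerves, beside 17.7% of all genes. With the log2 receptor level of each library as a covariate, an alternative chosen after seeing the data, 14 RNAs were lower than in contralateral and 15 lower than in uncrushed nerves, of which 13 and 14 were among those called without it, beside 13.5% and 9.5% of all genes. Crushed and uncrushed libraries did not overlap in receptor level, and crushed and contralateral ones overlapped only in part. Against uncrushed nerves this fit therefore cannot separate the group from the receptor level. A call lost with the covariate does not show that a gene was unchanged. What sets this level in a library was not tested.

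**Figure D2:**
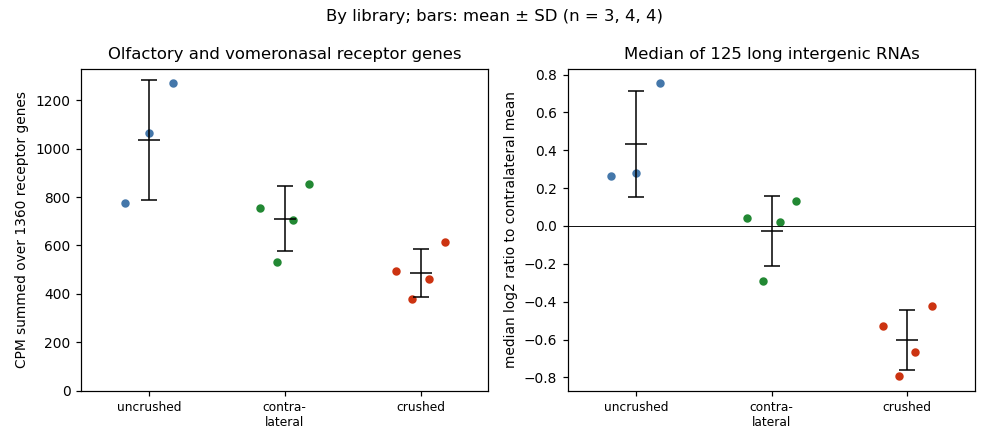
CPM summed over 1360 olfactory and vomeronasal receptor genes (left) and the median log2 ratio of 125 long intergenic RNAs, without the rRNA-like ones, to their contralateral mean (right), 1 point per library with mean ± SD of each group. The left panel is scaled to the library total without TMM normalization, and the right panel uses TMM-normalized levels. Both measures were highest in uncrushed replicate 3 (1270 CPM and 0.75) and lowest in crushed replicate 2 (376.7 CPM and -0.79).

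Per length, by the mean of the deposited FPKM values, the highest levels were those of Gm42418 (14560 FPKM), Gm26870 (13301 FPKM), Malat1 (5394 FPKM) and Gm26917 (793.3 FPKM). Together the 128 genes took 5.66 to 6.47% of all counts in contralateral, 6.12 to 7.16% in uncrushed and 6.54 to 7.504% in crushed nerves. Every crushed library was above every contralateral one, while crushed and uncrushed libraries overlapped, and parts of the total moved in opposite directions. The 3 rRNA-like genes took 1.41 to 1.57% of the counts in contralateral, 1.25 to 2.46% in uncrushed and 4.37 to 5.06% in crushed nerves. Malat1 took 2.13 to 2.45%, 1.42 to 2.01% and 1.01 to 1.44%, and the rest 1.92 to 2.59%, 2.21 to 3.29% and 1.03 to 1.57%, in the same order.

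The rRNA-like genes Gm42418 and Gm26917 lie side by side on chromosome 17 in a stretch of ribosomal DNA, and AY036118 lies within Gm42418 on the opposite strand. Gm42418 (chr17:39846958-39848788) measured 33870, 41182, 43246 and 40567 CPM in crushed nerves, 13824, 12394, 12682 and 14509 CPM in contralateral nerves and 11701, 18426 and 26402 CPM in uncrushed nerves. All crushed libraries lay above all others, and the uncrushed ones were spread over a wide range. Its log2 fold change was 1.59 ± 0.12 (adjusted p = 3.8e-08) against contralateral and 1.19 ± 0.25 (adjusted p = 0.0011) against uncrushed nerves. Without uncrushed replicate 1 the latter was just under the fold limit, at 0.98. Gm26917 rose likewise, by 1.46 ± 0.23 and 1.53 ± 0.30, with crushed replicate 1 (6815 CPM) far above the other crushed libraries (2998 to 3542 CPM). With the receptor level as a covariate it was not called against uncrushed nerves (1.08, adjusted p = 0.23). AY036118 had log2 fold changes of 0.97 and 0.94, under the 2-fold limit. Of the words of Gm42418, 96.3% also occur in other annotated genes, and all those of AY036118 occur in Gm42418. The kit named in the labels removes rRNA, so these values also depend on how completely that was done in each library, which was not tested.

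Gm26870 (chr9:3000282-3038313, minus strand) is made of repeats. Its longest transcript matched itself best when shifted by 234 bases, at which 81.5% of the bases were equal. Such units make up the major satellite of the mouse, the repeat of the heterochromatin beside the centromeres. The first unit of the transcript is printed here because the transcript repeats it, with capitals where the base one unit further on is the same.
Gm26870 unit: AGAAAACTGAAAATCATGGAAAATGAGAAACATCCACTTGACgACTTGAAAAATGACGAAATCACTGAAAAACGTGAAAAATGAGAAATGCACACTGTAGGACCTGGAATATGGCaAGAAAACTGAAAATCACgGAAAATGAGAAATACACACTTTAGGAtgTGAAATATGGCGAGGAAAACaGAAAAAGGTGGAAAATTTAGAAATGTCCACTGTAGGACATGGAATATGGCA
Levels were 9355, 5663, 6360 and 8558 CPM in crushed, 16130, 13075, 18474 and 17498 CPM in contralateral and 23478, 12861 and 25316 CPM in uncrushed nerves. Every crushed library was below every control library. The change was -1.10 ± 0.17 against contralateral and -1.34 ± 0.25 against uncrushed nerves (adjusted p = 5.7e-05 and 0.00055). It lay within 0.5 of the change of the receptor genes in both comparisons, and with their level as a covariate it was not called in either (-0.68 and -0.93). The fit without the filter on low counts gave -0.93 against contralateral nerves, under the fold limit.

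Malat1 and Neat1 are neighbours on chromosome 19, both on the minus strand. Malat1 (chr19:5795690-5802672), the RNA of nuclear speckles, measured 13388, 9952, 10472 and 9386 CPM in crushed nerves, 23762, 23392, 24639 and 21635 CPM in contralateral nerves and 21344, 20864 and 15982 CPM in uncrushed nerves. The crushed libraries were below all others. It fell by 1.10 ± 0.13 on the log2 scale against contralateral nerves (adjusted p = 4.2e-06). Against uncrushed nerves the value of -0.74 ± 0.18 (adjusted p = 0.0035) was under the 2-fold limit. Against contralateral nerves it was called with the receptor level as a covariate too (-1.13), and was just under the fold limit in the fit without a filter on low counts (-0.93).

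Neat1 (chr19:5824708-5845478), the scaffold of paraspeckles, measured 579, 381, 347 and 360 CPM in crushed, 632, 691, 728 and 584 CPM in contralateral and 726, 628 and 514 CPM in uncrushed nerves. As a gene it was not called, with log2 fold changes of -0.64 ± 0.15 and -0.48 ± 0.19. Its 2 main transcripts share their 5′ end, and only the long one of 20771 bases builds paraspeckles, while the short one has 3004 bases. The long transcript held 61.6, 63.7, 60.5 and 63.3% of the Neat1 counts in crushed nerves, 38.0, 44.3, 43.7 and 44.4% in contralateral nerves and 46.5, 46.8 and 53.2% in uncrushed nerves. The share was thus 62.3% ± 1.5 (SD, n = 4) after crush, 42.6% ± 3.1 (SD, n = 4) in contralateral and 48.8% ± 3.8 (SD, n = 3) in uncrushed nerves, with no overlap of crushed and control libraries. The level of the long transcript was 357, 243, 210 and 228 CPM in crushed, 240, 306, 318 and 259 CPM in contralateral and 337, 294 and 273 CPM in uncrushed nerves. Crushed replicate 1 was the highest of all and the other crushed libraries were below every uncrushed one. The crushed mean of 259 ± 66.2 CPM (SD, n = 4) was 227 ± 16.3 CPM (SD, n = 3) without that library, so its distance from the contralateral mean of 281 ± 37.2 CPM (SD, n = 4) was 21.5 CPM with it and 53.9 CPM without it. The short transcript was at 157 ± 43.0 CPM in crushed and 377 ± 36.7 CPM in contralateral nerves (SD, n = 4 each). This split was looked at after its values were seen and was not tested, and since the short transcript lies wholly within the long one, the split is an estimate of the quantification. Of 12 paraspeckle proteins on a list, among them Nono, Sfpq and Pspc1, none were called against either control. Without the fold limit, 9 of the 12 were higher than in contralateral and 11 higher than in uncrushed nerves, with medians of 0.57 and 0.80, beside 33.5% and 33.8% of all genes that were higher by that rule. By it 1 of the 12 was lower against each control (-0.95 and -0.77).

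**Figure D3:**
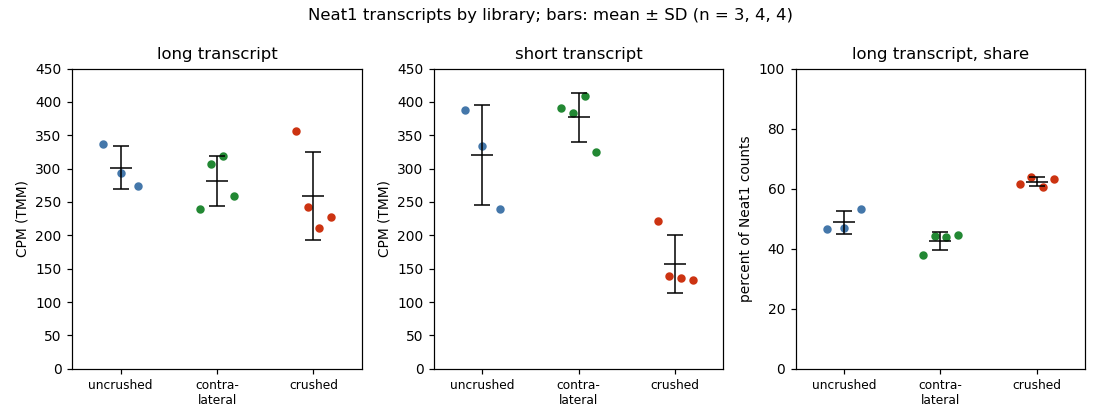
Level of the long (left) and the short (middle) Neat1 transcript in CPM and the long transcript's percent of Neat1 counts (right) by library, with mean ± SD of each group. The long transcript's share was 60.5 to 63.7% in crushed nerves and 38.0 to 53.2% in the controls, while its level in crushed replicate 1 (357 CPM) lay above and in the other crushed libraries (210 to 243 CPM) below every uncrushed library.

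By the rule with the 2-fold limit, calls among the other RNA-handling proteins differed by list. Of all genes tested, 14.6% were called higher and 13.6% lower than in contralateral nerves, and 15.3% and 21.1% than in uncrushed nerves. None of 10 nuclear speckle proteins and none of 10 proteins of nonsense-mediated decay were called in either crush comparison. Of 10 proteins of snoRNA ribonucleoproteins, 3 were higher than in contralateral and 6 higher than in uncrushed nerves, and none lower, with medians of 0.79 and 1.10. Of 14 proteins of the nuclear exosome and its cofactors, which degrade nuclear RNA, 1 and 2 were higher. Without the fold limit, 9 and 10 of the 10 snoRNA ribonucleoproteins and 9 and 10 of the 14 exosome proteins were higher, 6 speckle proteins were higher and 3 lower than in contralateral nerves and 6 were higher than in uncrushed nerves, and 3 decay proteins were higher and 2 lower than in contralateral nerves and 5 were higher than in uncrushed nerves. By that rule 33.5% of all genes were higher and 32.9% lower than in contralateral nerves, and 33.8% and 33.4% than in uncrushed nerves.

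The snoRNA hosts took 3 different courses. Snhg6 (chr1:9941959-9944118, minus strand), host of Snord87, measured 12.7, 14.1, 12.8 and 13.2 CPM in crushed, 5.28, 4.63, 4.62 and 5.74 CPM in contralateral and 7.19, 3.63 and 3.24 CPM in uncrushed nerves. It rose by 1.40 ± 0.12 (adjusted p = 9.6e-08) and 1.52 ± 0.23 (adjusted p = 0.00010), and the 4 crushed libraries lay close together above all controls. With the receptor level as a covariate it was called against contralateral nerves only. Snhg12, host of Snora44, Snora61, Snord99 and Snora16a, did not pass the test, at 0.24 ± 0.16 and 0.12 ± 0.19. Snhg18, host of Snord123, fell.

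Snhg18 (chr15:32240565-32244662, minus strand) measured 16.0, 16.3, 15.2 and 13.4 CPM in crushed, 42.3, 51.6, 46.6 and 43.9 CPM in contralateral and 68.1, 39.8 and 37.2 CPM in uncrushed nerves. All crushed libraries were below all controls, and one uncrushed library stood above the rest. It fell by 1.58 ± 0.10 (adjusted p = 3.2e-09) and 1.58 ± 0.19 (adjusted p = 1.6e-05). Its start lies 148 bases from that of Sema5a on the opposite strand, a semaphorin that guides axons, and the promoter printed above lies in that interval in part. Sema5a, at -3.45 ± 0.09 and -3.20 ± 0.10, fell from 830 CPM in contralateral to 75.05 CPM in crushed nerves.

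The promoter of Gm26894 (chr5:28466374-28480973, plus strand) faces that of Shh, the morphogen Sonic hedgehog that repair SCs produce after injury. The starts lie 882 bases apart on opposite strands and the spans overlap. Gm26894 measured 15.4, 11.3, 10.9 and 9.24 CPM in crushed nerves, 0.472, 0.550, 0.702 and 0.308 CPM in contralateral nerves and 0.899, 1.501 and 1.53 CPM in uncrushed nerves. It was near the detection limit of 3 counts (0.236 to 0.511 CPM) in the contralateral nerves and clearly above it in every crushed library. The log2 fold change was 4.51 ± 0.25 (adjusted p = 1.2e-09) against contralateral and 3.31 ± 0.27 (adjusted p = 4.2e-07) against uncrushed nerves, the largest increase of the 128 in each. Since it passed the limit of 5 CPM only through the crushed nerves, a difference was built into its choice. Shh rose from 2.54 CPM in contralateral to 368 CPM in crushed nerves, by 7.20 ± 0.17. Of the words of Gm26894, 30.0% occur in other transcripts, most often those of Shh, and the strand setting of the quantification is not given in the sources used here.

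**Figure D4:**
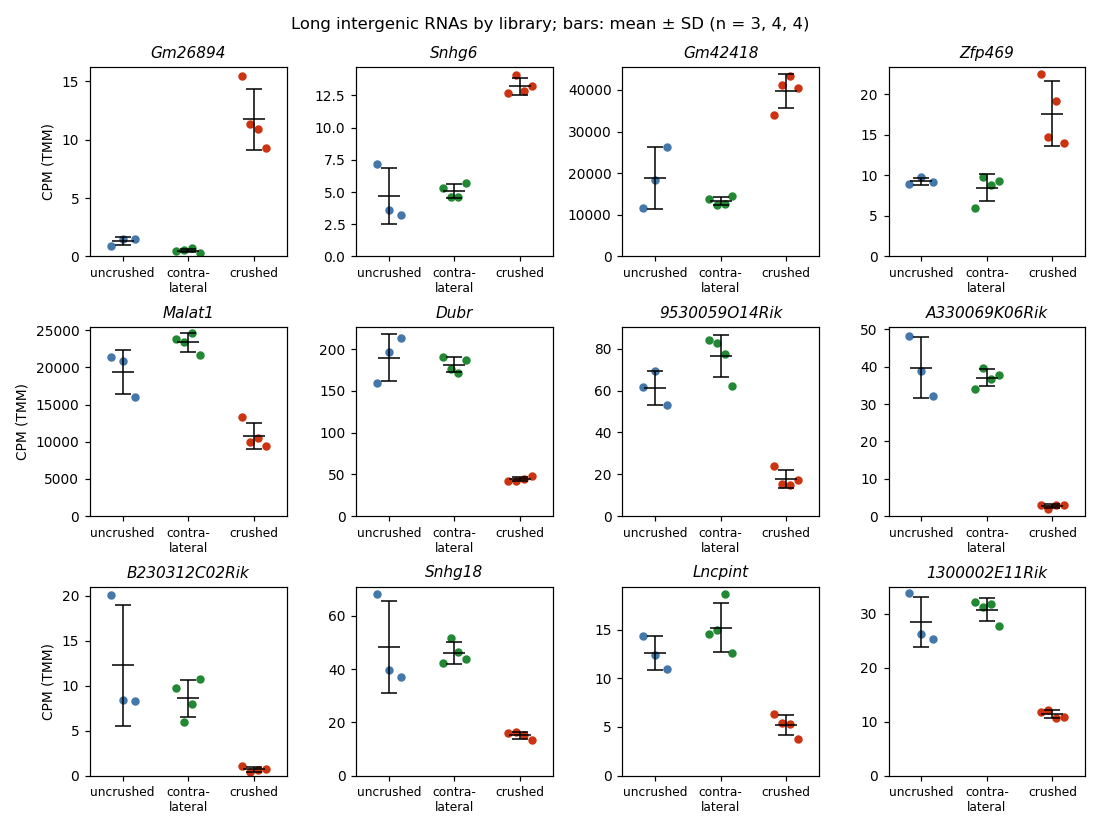
CPM of 12 long intergenic RNAs in each library, 1 point per library, with mean ± SD per group (uncrushed n = 3, contralateral n = 4, crushed n = 4). Crushed libraries lie above all controls for Gm26894, Snhg6, Gm42418 and Zfp469 and below all controls for the other panels. All but Malat1 are on the lists of RNAs called without overlap in a crush comparison. Their separation therefore follows in part from the choice.

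Not all divergent pairs changed together. Of 15 long intergenic RNAs of any class that start within 2000 bases of a protein-coding gene on the opposite strand, 12 had a partner that could be tested. Of these partners 1 was higher, 4 were lower and 7 were not called against contralateral nerves, beside 14.6% higher and 13.6% lower of all genes. In 3 pairs both genes were called there in the same direction (Gm26894 with Shh, Snhg18 with Sema5a, and Gm26870 with Gm10715, a neighbour made of the same satellite). Against uncrushed nerves 3 partners were higher, 2 lower and 7 not called, beside 15.3% higher and 21.1% lower of all genes. There 4930509G22Rik (-1.32) and its partner Zc3h7a (1.09) were called in opposite directions. With 12 partners these counts are a description. AI480526 fell by 1.63 ± 0.11 while Setd1b, a histone methyltransferase 527 bases away, had -0.16 ± 0.09. It measured 4.57, 5.46, 4.95 and 4.52 CPM in crushed nerves, 15.8, 15.3, 15.3 and 14.7 CPM in contralateral nerves and 12.2, 13.1 and 11.1 CPM in uncrushed nerves. The groups were tight and well apart, but it was named for a call without overlap against contralateral nerves. Of its words, 61.4% occur in other genes. Gm12688 was at -0.84 while Foxd3, a transcription factor of the neural crest and immature glia, was at 0.98, just under the fold limit. Against uncrushed nerves Foxd3 rose by 1.496 ± 0.13 and Gm12688 was at -0.44.

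**Figure D5:**
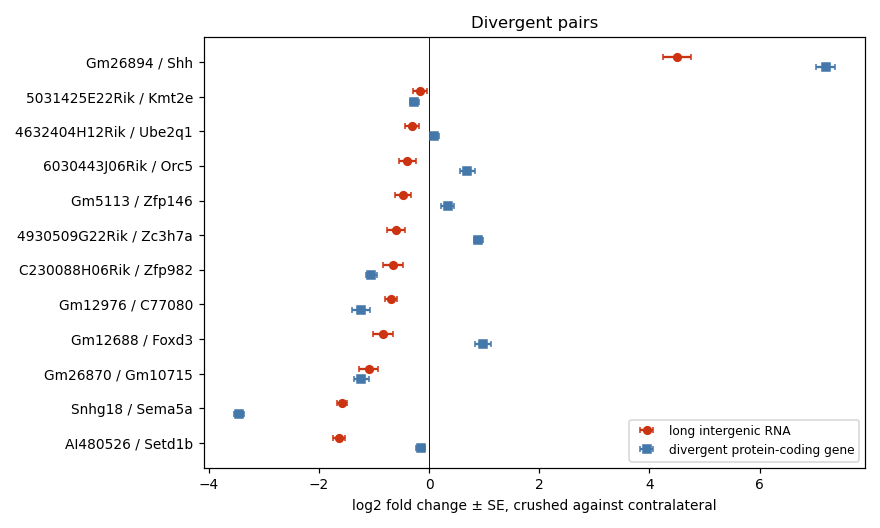
Log2 fold change (± SE) between crushed and contralateral nerves for the 12 divergent pairs whose protein-coding partner was tested, with the long intergenic RNA as a circle and the partner as a square. Gm26894 with Shh and Snhg18 with Sema5a lie far from 0 on the same side, and AI480526 lies far from 0 (-1.63) while Setd1b does not (-0.16).

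The strongest reductions were those of A330069K06Rik and B230312C02Rik, neither of which has a role given here. Both reached a mean of 5 CPM in the control groups but not in crushed nerves, so their choice favours a reduction. A330069K06Rik (chr3:80054892-80213085, plus strand) measured 2.89, 1.79, 2.93 and 2.92 CPM in crushed, 34.1, 39.7, 36.6 and 37.6 CPM in contralateral and 48.3, 38.8 and 32.0 CPM in uncrushed nerves. It was 13.9-fold lower than in contralateral and 14.2-fold lower than in uncrushed nerves (log2 fold change -3.80 ± 0.14 and -3.83 ± 0.20, adjusted p = 1.7e-11 and 8.0e-09). No control library came near a crushed one, but both RNAs were named for calls without overlap. B230312C02Rik (chr2:180370491-180385885, minus strand) measured 1.04, 0.407, 0.642 and 0.754 CPM in crushed, 9.71, 5.97, 7.93 and 10.8 CPM in contralateral and 20.05, 8.38 and 8.35 CPM in uncrushed nerves, so that it was close to the detection limit after crush (-3.54 ± 0.27 and -4.02 ± 0.40). Its change against uncrushed nerves ranged from -4.32 to -3.38 with 1 library left out. Neither shared more than 4.78% of its words with other genes.

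Dubr (chr16:50719294-50732773, minus strand), a nuclear RNA known from muscle progenitors, measured 42.0, 42.6, 44.2 and 47.9 CPM in crushed, 191, 176, 172 and 187 CPM in contralateral and 160, 197 and 214 CPM in uncrushed nerves. It fell, at -2.02 ± 0.08 and -1.995 ± 0.11 (adjusted p = 3.3e-11 and 1.6e-08), and its spread within each group was small. The RNA 9530059O14Rik (chr9:122572499-122679596, plus strand), whose promoter is printed above, measured 23.8, 15.3, 14.9 and 17.1 CPM in crushed, 84.3, 82.7, 77.4 and 62.2 CPM in contralateral and 61.6, 69.2 and 53.2 CPM in uncrushed nerves, and fell by 2.09 ± 0.15 and 1.68 ± 0.16. Gm13403 fell by 2.07 ± 0.16 and 1.73 ± 0.21, from 15.5 ± 2.16 CPM (SD, n = 4) in contralateral to 3.63 ± 0.805 CPM (SD, n = 4) in crushed nerves. Its nearest protein-coding gene, Mvb12b of the endosomal sorting machinery, fell by 1.73 ± 0.09 and 1.42 ± 0.10.

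Lncpint (chr6:31082565-31220488, minus strand), an RNA induced by p53 that acts with the Polycomb complex, measured 6.34, 5.38, 5.32 and 3.77 CPM in crushed, 14.5, 14.9, 18.7 and 12.6 CPM in contralateral and 14.4, 12.4 and 10.9 CPM in uncrushed nerves. It fell by 1.52 ± 0.16 and 1.18 ± 0.18, with no overlap between crushed and control nerves, and the latter was -0.96 without the filter on low counts, under the fold limit. The RNA 1300002E11Rik (chr16:21794318-21809040, plus strand) starts 28 bases from Map3k13, which encodes the leucine zipper kinase LZK, on the same strand. It measured 11.9, 12.2, 10.6 and 10.9 CPM in crushed, 32.3, 31.3, 31.8 and 27.7 CPM in contralateral and 33.9, 26.3 and 25.4 CPM in uncrushed nerves. Both fell, the RNA by 1.41 ± 0.10 and 1.23 ± 0.13 and Map3k13 by 1.33 ± 0.20 and 1.27 ± 0.23. Gm38399, within the span of the neuron navigator gene Nav1, fell by 1.08 ± 0.14 and 1.02 ± 0.14, and Nav1 by 1.21 ± 0.09 and 1.08 ± 0.10. Gm15675, downstream of the complement regulator Cd55, fell by 1.12 ± 0.13 and 1.45 ± 0.16, and Cd55 by 2.92 ± 0.11 and 2.59 ± 0.11. In these pairs on one locus, reads of unspliced or extended transcripts could be counted for either gene.

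The remaining RNAs called lower against both controls were BC051077, at -1.35 and -1.48, and Gm12480, AY512931 and Gm29194, which was on chromosome Y. Gm29194 measured 2.41, 1.63, 1.56 and 2.54 CPM in crushed, 6.60, 3.46, 4.82 and 8.10 CPM in contralateral and 6.02, 8.25 and 13.8 CPM in uncrushed nerves, and shares 82.1% of its words with other genes. With the receptor level as a covariate it was called against neither control (-0.62 and -0.52). AY512931 was not called against contralateral nerves with that covariate (-0.62), without the filter (-0.92) or without crushed replicate 2 (-0.99). All 5 RNAs of chromosome Y were called lower than in uncrushed nerves and 1 was lower than in contralateral nerves, beside 21.1% and 13.6% of all genes. Their median against uncrushed nerves was -1.32, and the summed level of the receptor genes differed by -1.31.

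Zfp469, Gm37233 and Gm43549 were also higher than in contralateral nerves. Zfp469 (RefSeq: a protein-coding zinc finger gene) measured 22.5, 14.7, 19.2 and 13.95 CPM in crushed, 6.04, 9.74, 8.83 and 9.33 CPM in contralateral and 8.90, 9.76 and 9.20 CPM in uncrushed nerves, and rose by 1.06 ± 0.18 and 1.02 ± 0.18. It was close to the fold limit and under it without crushed replicate 1 (0.88 and 0.85) or replicate 3 (0.99 and 0.98) and without contralateral replicate 1 (0.93). It was not called either with the receptor level as a covariate (0.98, and 1.09 with an adjusted p of 0.066 by edgeR), nor against uncrushed nerves in the fit of all 11 libraries (0.92) or with scaling to protein-coding genes (0.90). Gm37233, which hosts Mir5103 and starts downstream of Ccdc115, rose by 1.44 ± 0.16 and 1.01 ± 0.26, the latter under the limit in 9 of the alternative fits (0.70 to 0.999), lowest without uncrushed replicate 1. Ccdc115 rose as well, by 0.91 ± 0.13 and 1.10 ± 0.17, and reads of an extended transcript could be counted for either gene. Gm43549 rose by 1.33 ± 0.13 against contralateral nerves and was under the fold limit against uncrushed nerves (0.73 ± 0.17), and 93.2% of its words occur in other genes.

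Of the 6 microRNA hosts, 6720427I07Rik (chr13:48532905-48546500, minus strand) carries let-7a-1, let-7f-1 and let-7d, members of a family that is known for keeping cells differentiated. Their mature forms share the seed GAGGUAG at bases 2 to 8, in capitals, by which they find their targets.
mmu-let-7a-5p: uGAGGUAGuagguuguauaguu
mmu-let-7f-5p: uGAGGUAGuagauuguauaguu
mmu-let-7d-5p: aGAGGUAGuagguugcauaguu
Levels of the host RNA were 8.51, 14.99, 9.54 and 11.5 CPM in crushed, 19.1, 14.6, 15.9 and 14.05 CPM in contralateral and 16.5, 16.0 and 8.69 CPM in uncrushed nerves. The groups overlapped, and neither difference was called, at -0.50 ± 0.16 on the log2 scale (adjusted p = 0.013) and -0.24 ± 0.23 (adjusted p = 0.38). The counts are of the long host RNA and say nothing of the mature microRNAs. Snhg20, the host of Mir6516, fell by 1.02 ± 0.19 against contralateral nerves and was at -0.87 ± 0.24 against uncrushed nerves. The first value was under the limit without contralateral replicate 2 (-0.90) or 3 (-0.98), without crushed replicate 2 (-0.94) and without the filter on low counts (-0.86). Ftx, an RNA of the X-inactivation centre that hosts Mir374b and Mir421, was at -0.28 ± 0.13 and -0.15 ± 0.14. A further named RNA, 2900097C17Rik, was at -0.44 ± 0.09 and -0.41 ± 0.10, lower in each crushed library than in any control but under the fold limit.

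The most abundant of the remaining genes had log2 fold changes below 0 in both crush comparisons. Gm26905, Gm35439, Gm37724 and Gm43042 had -0.48, -0.74, -0.72 and -0.30 against contralateral and -1.01, -1.33, -1.24 and -0.85 against uncrushed nerves, as in the shared reduction. In contrast, 1700020I14Rik had -0.73 and -0.60, without the larger reduction against uncrushed nerves. Gm26905 was under the fold limit against uncrushed nerves without crushed replicate 2 (-0.97) or uncrushed replicate 2 (-0.96) or 3 (-0.93), without the filter (-0.78) and with the receptor covariate (-0.39), and Gm37724 in the last pair of fits (-0.996 and -0.27). Gm26848 and Gm29221, among the lowest against uncrushed nerves (-1.67 and -1.51), had -0.99 and -0.38 against contralateral nerves and were not called there, although Gm26848 was called in 6 alternative fits (-1.01 to -1.19). Gm26525, with -1.04 against uncrushed nerves, was at 0.15 against contralateral nerves, and it was under the fold limit against uncrushed nerves without uncrushed replicate 2 (-0.99) or 3 (-0.94).

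Among lists with at least 4 tested markers, those of myelinating and repair SCs, macrophages, dividing cells and axons had medians of at least 2-fold in both comparisons. Those of the SC lineage, fibroblasts and endothelial cells did not. Of 10 markers of myelinating SCs, 9 were lower against each control, and their summed level was 2077 to 3118 CPM in crushed, 47282 to 61566 CPM in contralateral and 45382 to 48301 CPM in uncrushed nerves. Of 5 SC lineage markers, 1 was higher (4.66) and 2 were lower than in contralateral nerves. Without the fold limit 4 of the 5 were lower, beside 32.9% of all genes, and the median was -0.85. Their sums of 1930 to 2704 CPM in crushed and 2151 to 2703 CPM in contralateral nerves therefore join changes in opposite directions. All 12 macrophage markers were higher, at 861.7 to 1967 CPM in crushed, 135.8 to 253.8 CPM in contralateral and 185.6 to 226.4 CPM in uncrushed nerves, and all 8 cell cycle markers were higher, at 806 to 1215 CPM against 19.5 to 44.6 CPM in the controls. All 4 tested repair SC markers were higher (647 to 944 CPM against 29.1 to 37.1 CPM). Of 4 tested axonal markers 4 were lower (10.6 to 14.7 CPM against 62.4 to 81.6 CPM). Of 6 fibroblast markers 1 was lower against each control, and of 6 endothelial markers 2 were higher. Neutrophil markers summed to 19.3 to 35.0 CPM in crushed and 4.79 to 13.1 CPM in control nerves. Only 2 of the 6 were tested, with 2 called higher than in contralateral and 1 higher than in uncrushed nerves (medians 5.70 and 3.92). T cell, mast cell, adipocyte and skeletal muscle markers each summed to 33.3 CPM or less in every library, with no list wholly at 0. Among them, the 3 tested mast cell markers were lower than in contralateral nerves (median -2.70), the 1 tested muscle marker was lower against both controls (-3.12 and -3.68), 2 of 3 tested T cell markers were lower than in uncrushed nerves, and 1 of 2 tested adipocyte markers was higher against each control. The part of these shifts in the results above was not tested.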

How the data were processed

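RNA sequencing of 11 nerves of the crush experiment was used. The labels name a SMARTer stranded pico-input kit with built-in rRNA removal, while the methods of the study describe TruSeq with RiboZero. The authors trimmed the reads with Trimmomatic and aligned them with STAR. They quantified Ensembl transcripts of GRCm38 with RSEM, and the Ensembl release and strand setting are not given in the sources used here. Their deposited files give RSEM's expected counts for each transcript, without normalization, which were summed per gene and rounded. FPKM values, which the authors scaled to length and depth, were used only to order levels between genes. Gene types and positions are from GENCODE vM21 and are given for GRCm38. The title of an uncrushed library numbers it 3 and its description 4, and the title was used. The iKO libraries are not analysed here.

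Each comparison of 2 groups was fitted over all genes with edgeR 4.0.16 (R 4.3.3), with filterByExpr (minimum count 10), TMM normalization and the quasi-likelihood test. Genes were called at a fold change of at least 2 and a Benjamini-Hochberg adjusted p of at most 0.05. SEs were obtained by dividing each log2 fold change by the root of its F statistic. Totals were 6617600 to 12805921 counts per library, and the detection limit of 3 counts was 0.236 to 0.511 CPM, which covers counting error only. The test was tested on simulated data. Shared words are 31-base words of all GENCODE transcripts of a gene. Named were the 10 genes of highest mean CPM, the 10 highest and 10 lowest called without overlap in each crush comparison, RNAs with a described role, and the 3 genes on each side of the CPM limit. For those named by the lists of calls, the lack of overlap follows from that choice. Other genes were named after their values were seen. These are BC051077, Gm12480, Gm38399, Gm15675, AY036118, 6720427I07Rik, Gm12688 and the genes that reach the limit in uncrushed nerves alone. The members and lists were chosen with earlier results of these data known. Alternatives were RLE scaling, no filter, DESeq2 1.42.0, a fit of all 11 libraries, a replicate block, scaling to protein-coding genes, other thresholds and leaving out each library. The receptor genes and their use as a covariate were chosen after seeing the data. Within a group, replicates are separate mice per the study's methods, which also describe the contralateral nerve as taken from the operated mice.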

Additional observations from a re-analysis of the deposited data

Results flagged for a closer look

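Among the named RNAs, 4 groups of 4 libraries held a library far from its neighbours by Dixon's gap test, of 68 groups tested, about as many as chance gives at 1 in 20. Gm26917 was at 6815 CPM in crushed replicate 1, against 2998 to 3542 CPM in the other crushed nerves. In the same library Neat1 was at 579 CPM, against 347 to 381 CPM. Gm43549 was at 18.7 CPM in contralateral replicate 2, against 31.6 to 32.5 CPM in the other contralateral nerves. A330069K06Rik was at 1.79 CPM in crushed replicate 2, against 2.89 to 2.93 CPM, a small gap beside the 34.1 CPM or more of the contralateral nerves.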

How the results depend on the processing

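Against uncrushed nerves, 71 RNAs were lower, but 35 without a filter on low counts, 15 with the receptor level as a covariate (chosen after seeing the data), and 38 to 77 with 1 library left out, lowest without uncrushed replicate 3. Against contralateral nerves, 18 were lower, but 11 without the filter. Lower against both were 16, but 9 without the filter. For calls against both controls, here and with no fold limit, the share of all genes was not counted. With no fold limit, 11 were higher and 96 lower than in contralateral nerves, 11 higher and 99 lower than in uncrushed nerves, and 10 higher and 87 lower against both. Between the control groups 0 were lower, but 2 without the filter, 3 by DESeq2, 1 in the fit of all 11 libraries and 0 to 2 with 1 library left out. All other alternative counts were within 1.5 times. Leaving out a library of 1 control group kept the calls of the other comparison where both were combined.

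The sign changed for Gm43042 against contralateral nerves (0.042) and for Gm29221 against contralateral (0.53) and uncrushed nerves (0.012) with the receptor covariate, and for Ftx against uncrushed nerves without the filter (0.077). For Snhg12 against uncrushed nerves it changed with protein-coding scaling (-0.0073) and the receptor covariate (-0.032), with a range of -0.075 to 0.25 over the fits without 1 library. Except for Gm29221 against uncrushed nerves none of these were called. Over all named RNAs and alternatives, 480 of 510 values against contralateral nerves and 434 of 476 against uncrushed nerves kept their sign and their side of the call. Between the control groups, where single values are not reported, 25 of 462 changed sign. Scaling to protein-coding genes moved the median of all genes by -0.13 against uncrushed nerves. Causes were not tested.

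The replicate block gave 7 higher and 18 lower against contralateral and 6 higher and 74 lower against uncrushed nerves. Crushed and contralateral nerves can share animals, but the numbers are not stated to mark them, and same-numbered crushed and contralateral libraries correlated at -0.22 to 0.27 in their deviations from the group means, so they were not taken as pairs. The share of the long Neat1 transcript was above that of contralateral nerves by 18.1 to 20.3 percentage points and above that of uncrushed nerves by 12.3 to 15.7 with any library left out.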
